A study of Mus musculus with 5 samples.

Results

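The 10 alpha and beta tubulin genes of mouse cardiac fibroblasts (CF) are described here, out of 20365 gene names in the SLAMseq tables. The members were taken by name, Tuba1a, Tuba1b, Tuba1c and Tuba4a for the 4 alpha tubulins and Tubb2a, Tubb2b, Tubb3, Tubb4b, Tubb5 and Tubb6 for the 6 beta tubulins, and all 10 were found. Each gene was represented by 1 of its 3′ UTR intervals, the interval with the highest mean deposited CPM (read counts scaled to a common library total) in the labeled libraries. CF had been isolated from hearts of adult, healthy, male wildtype mice of the strain C57Bl/6J by collagenase perfusion and were cultured to confluency. The labeled group held 3 libraries from CF given 0.1 mM 4-thiouridine (S4U) for 12 h, and the unlabeled group held 2 libraries from CF kept for 12 h without it. RNA of every library was treated with iodoacetamide, so that S4U built into new RNA reads as C in place of T. No gene was altered and no disease model was used in any library. By the study's methods, SLAMseq was done on separate CF preparations, with unlabeled cells kept in parallel. The labels name no animals and do not say whether a labeled and an unlabeled library of the same number came from 1 preparation.

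Alpha and beta tubulin form the heterodimer from which microtubules are built, and mammals encode each of them by several isotype genes that share most of their coding sequence. Microtubules position organelles, carry secretory vesicles and form the mitotic spindle, and fibroblasts depend on them for polarity and for the export of matrix proteins. Cells adjust the amount of tubulin to the pool of free dimers through the stability of tubulin mRNA, a process known as tubulin autoregulation. Its signal is the start of the nascent tubulin chain, which is read by TTC5 on the ribosome and leads through SCAPER to mRNA decay by the CCR4-NOT complex.

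The starts of the coding sequences are shown because they carry this signal and because they differ little between isotypes, unlike the 3′ UTR intervals on which the reads were counted. The first 30 coding bases of the canonical transcripts in the GENCODE annotation of GRCm39 are given 5′ to 3′ for 9 of the 10 members, without Tubb6, and capitals mark the first 4 codons.
Tuba1a: ATGCGTGAGTGCatctccatccatgttggc
Tuba1b: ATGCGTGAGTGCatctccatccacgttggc
Tuba1c: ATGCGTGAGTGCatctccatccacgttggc
Tuba4a: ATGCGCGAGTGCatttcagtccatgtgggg
Tubb2a: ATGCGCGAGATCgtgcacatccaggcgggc
Tubb2b: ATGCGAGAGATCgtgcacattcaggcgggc
Tubb3: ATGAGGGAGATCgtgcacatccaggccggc
Tubb4b: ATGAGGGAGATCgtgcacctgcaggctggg
Tubb5: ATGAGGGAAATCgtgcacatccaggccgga

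The capitals of Tuba1a, Tuba1b and Tuba1c were the same, and those of Tubb3 and Tubb4b were the same. Among 21567 canonical coding transcripts, the start shared by Tuba1a, Tuba1b and Tuba1c was found in 4, the fourth being Gm49450, which overlaps Tuba1a on the same strand. The other 5 starts shown belonged to tubulins of this list alone. Whole coding sequences were 84.9% to 98.3% identical among the alpha tubulins, 80.6% to 96.5% among the beta tubulins and 58.2% to 60.3% between the classes. The counted intervals were far less alike, with 14.2% to 48.8% identity among alpha and 13.6% to 53.5% among beta tubulins in end-to-end alignments of unequal lengths. The longest run of bases shared by 2 intervals was 9 among alpha and 14 among beta tubulins. All 10 intervals lay within exon 4 of 4, the last exon, and held 0 coding bases.

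The intervals are given on GRCm39, counted from 1. Those of Tuba1a (chr15:98847728-98847914, minus strand), Tuba1b (chr15:98829310-98829462, minus) and Tuba1c (chr15:98935891-98935986, plus) belong to the alpha tubulin cluster, and that of Tuba4a is at chr1:75191616-75192265 (minus). Those of Tubb2a (chr13:34258261-34258450, minus) and Tubb2b (chr13:34310991-34311453, minus) are neighbours as well. Tubb3 was counted at chr8:124148422-124148754 (plus), Tubb4b at chr2:25112170-25112319 (minus), Tubb5 at chr17:36144812-36145873 (minus) and Tubb6 at chr18:67535447-67535819 (plus). Genes on the other strand overlapped the intervals of Tuba1a and Tuba1b (Gm41396), Tuba4a (Stk16), Tubb2a (Bphl), Tubb4b (Cimip2a), Tubb5 (Flot1) and Tubb6 (Afg3l2), and Gm49450 overlapped Tuba1a on its own strand. Whether the authors' counting used strand is not given in the sources used here, so reads of these neighbours cannot be told apart from tubulin reads.

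The letters AATAAA, the usual polyadenylation hexamer, occurred on the sense strand in the last 50 bases of the intervals of Tuba1a, Tuba1c, Tubb2a, Tubb3, Tubb5 and Tubb6. ATTAAA, its most common variant, occurred there in Tuba4a and Tubb4b. Neither occurred there in Tuba1b and Tubb2b. The canonical transcripts ran on past the interval by 1572 bases for Tuba1b and 3746 bases for Tubb2b. They also ran on for Tubb3 (1338 bases), Tubb6 (954), Tuba4a (744), Tubb2a (712) and Tuba1c (280), whose windows held AATAAA or ATTAAA. For Tuba1a, Tubb5 and Tubb4b they ended 10, 2 and 0 bases past the interval. Of 19783 gene intervals of at least 50 bases, 64.0% held AATAAA and 17.9% held ATTAAA in this window. No match says only that these letters are not in this window.

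With each gene taken at its 1 interval, libraries held from 506045 reads (labeled replicate 3) to 1843033 reads (unlabeled replicate 1). Levels are given as CPM relative to counted reads, in which these reads are the total of a library, because the deposited CPM divides by a number of reads that exceeded them 7.58-fold to 28.9-fold, most in labeled replicate 3. Fibroblast markers (Col1a1, Col1a2, Col3a1, Dcn, Pdgfra, Tcf21 and Thy1) summed to between 30111 and 41269 CPM. The 4 cardiomyocyte markers summed to at most 8.03 CPM, the 4 endothelial ones to between 76.8 and 163 CPM, the 5 macrophage ones to between 52.0 and 74.3 CPM and the 4 mural ones to at most 13.8 CPM. Of 4 neuronal markers 3 were at 0 in every library and their sum did not exceed 1.00 CPM, and the Schwann cell markers summed to at most 6.98 CPM.

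Tuba1a was the most highly read tubulin, followed by Tubb5 and Tubb2a, and these 3 genes made up 67.6% to 80.9% of all tubulin reads. The 10 genes together held 1905, 2981 and 3203 CPM in labeled replicates 1, 2 and 3 (2696 ± 694, SD, n = 3) and 2140 and 2870 CPM in unlabeled replicates 1 and 2. The libraries numbered 1 were the lowest of their group. Alpha and beta tubulins took similar shares, with an alpha to beta ratio of reads of 0.738, 1.03 and 1.13 in the labeled and 1.10 and 1.27 in the unlabeled libraries.

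Among the alpha tubulins, Tuba1a, the isotype best known from neurons, was at 662, 997 and 1065 CPM in labeled replicates 1, 2 and 3 (908 ± 216, n = 3) and at 937 and 1131 CPM in unlabeled replicates 1 and 2. It ranked 110th of 13797 genes with reads in labeled libraries, in CF preparations whose neuronal markers were at or near 0. Tuba1b, a widely expressed isotype, was at 20.3, 256 and 368 CPM in the labeled libraries (215 ± 177) and at 41.2 and 246 CPM in the unlabeled ones. This was the widest range of all members, 18.1-fold, with both libraries numbered 1 far below the other 3. Tuba1c, also widely expressed, was at 93.9, 220 and 247 CPM with label (187 ± 81.7) and at 79.2 and 190 CPM without. Again both libraries numbered 1 were the lowest. Tuba4a, the alpha tubulin known for lacking the C-terminal tyrosine in its primary sequence, had the lowest labeled mean, at 33.0, 36.0 and 17.8 CPM with label (28.9 ± 9.76) and 61.3 and 38.1 CPM without. It was above Tubb2b in labeled replicate 1 and in both unlabeled libraries. Its value in labeled replicate 3 rests on 9 reads.

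Among the beta tubulins, Tubb5, the main isotype of many dividing cells, was at 451, 738 and 739 CPM in the labeled libraries (643 ± 166, n = 3) and at 416 and 550 CPM in the unlabeled ones. Tubb2a was at 380, 362 and 360 CPM with label (367 ± 11.3) and 378 and 396 CPM without. It was the steadiest member, with a range of 1.10-fold over all 5 libraries. Tubb6, a divergent beta tubulin, was at 139, 121 and 98.8 CPM with label (120 ± 20.1) and 89.0 and 101 CPM without. Tubb3, widely used as a neuronal marker, was at 69.8, 103 and 150 CPM with label (108 ± 40.4) and 80.3 and 103 CPM without. It was read in every library, from 76 reads upwards. Tubb4b, a broadly expressed isotype, was at 47.6, 103 and 103 CPM with label (84.4 ± 31.9) and 42.9 and 80.3 CPM without. Tubb2b, the close neighbour of Tubb2a on the chromosome, was at 8.25, 45.2 and 55.3 CPM with label (36.3 ± 24.8) and 15.2 and 34.1 CPM without. Its lowest value rests on 13 reads, and its range was 6.71-fold.

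**Figure D1:**
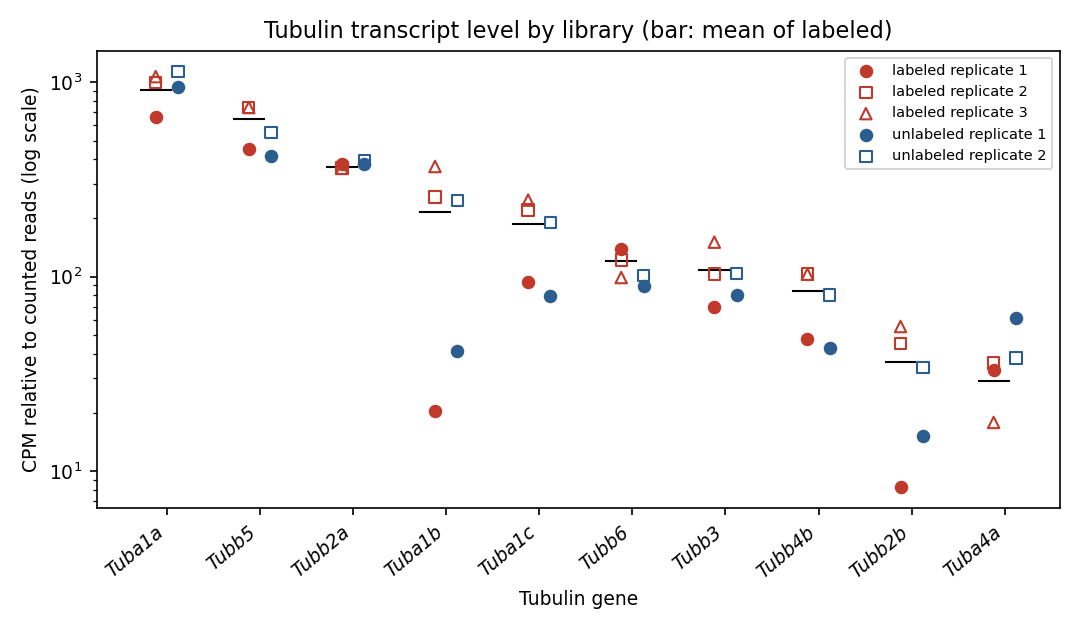
Level of each tubulin in each library, in CPM relative to counted reads on a log axis, with the genes ordered by their labeled mean (black bar). Points are the 3 labeled (red) and 2 unlabeled (blue) libraries, marked by replicate number. Tubb2a stays within 1.10-fold, whereas Tuba1b spans 18.1-fold with both libraries numbered 1 (filled circles) at the bottom.

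Ordered by their labeled mean, the levels ran Tuba1a, Tubb5, Tubb2a, Tuba1b, Tuba1c, Tubb6, Tubb3, Tubb4b, Tubb2b and Tuba4a. Only 3 of these 9 neighbouring steps kept their direction in 3 of 3 labeled libraries, namely Tuba1a over Tubb5, Tubb5 over Tubb2a and Tubb4b over Tubb2b. Tubb3 was above Tubb4b in 2 of 3 libraries and tied with it at 123 reads in labeled replicate 2, and the other 5 pairs changed places in 1 of 3 libraries. The mean difference of each of these 6 pairs was smaller than the SD of its differences within libraries. With 3 libraries an exact paired test cannot go below a two-sided p of 0.25, so no test was made between isotypes. Per kilobase of interval the order changed, since intervals ranged from 96 bases (Tuba1c) to 1062 bases (Tubb5). On this scale Tuba1a stayed first at 4855 ± 1154 CPM per kb, followed by Tuba1c (1948 ± 851), Tubb2a (1932 ± 59.4) and Tuba1b (1403 ± 1159), and then Tubb5 at 605 ± 156. Reads of 3′ end libraries do not scale with length in the way of full-length libraries, so both orders are descriptions of the intervals.

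The libraries with replicate number 1 differed from those numbered 2 in both groups, in the same direction for 7 of the 10 tubulins. Some tubulins were among the genes that differed most. Tuba1b was 12.6-fold higher in labeled replicate 2 than in labeled replicate 1, and 5.96-fold higher in unlabeled replicate 2 than in unlabeled replicate 1. These folds exceeded those of 99.9% and 99.8% of 6858 genes with at least 10 reads in every library. Tubb2b differed by 5.48-fold and 2.25-fold, Tuba1c by 2.34-fold and 2.40-fold and Tubb4b by 2.16-fold and 1.87-fold. In contrast, Tubb2a had folds of 0.951 and 1.05. In both groups 7 of the 10 members were higher in the library numbered 2, the exceptions being Tuba4a, Tubb2a and Tubb6. Tuba4a was higher there only in the labeled group (1.09-fold). Tubb2a (1.05-fold) and Tubb6 (1.14-fold) were higher there only in the unlabeled group. Over the 6858 genes the median log2 ratio of library 2 over library 1 was −0.09 in both groups. Labeled replicate 3 was nearer to labeled replicate 2, with Tuba1b 18.1-fold and Tubb2b 6.71-fold above labeled replicate 1.

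Near-copies of an interval elsewhere in the genome were counted as matches of at least 90% identity over at least 50 bases. Tuba1b had 7, of which 6 covered nearly the full interval and 4 were at least 98% identical, including the processed pseudogene Gm5311. Tubb4b had 4, among them Tubb4b-ps1, and Tubb2b had 2 at 95.5% and 97.4% identity, among them Tubb2a-ps2. Tuba4a had 2, neither over its full length. Tuba1a, Tuba1c and Tubb3 had 1 each, and Tubb2a and Tubb6 had 0. Tubb5 holds a stretch of up to 142 bases with 13313 matches across the genome, none of which covered the full interval. The deposited tables list 0 multimapping reads for every interval, so reads that fit several copies may be missing from or misplaced in these counts, and the levels of all members except Tubb2a and Tubb6 are uncertain in this respect. That includes the most-read members, since the copy of Tuba1a covered its full interval at 96.3% identity and 19 of the matches to Tubb5 were at least 98% identical. Across the 6858 genes the log2 ratio of library 2 over library 1 had a Spearman rho of 0.365 (labeled) and 0.325 (unlabeled) with the GC content of the interval. Across the 10 tubulins the rho was −0.26 and −0.18. These are descriptions over genes of the same libraries, and the part of copies or base composition in the Tuba1b difference was not tested.

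**Figure D2:**
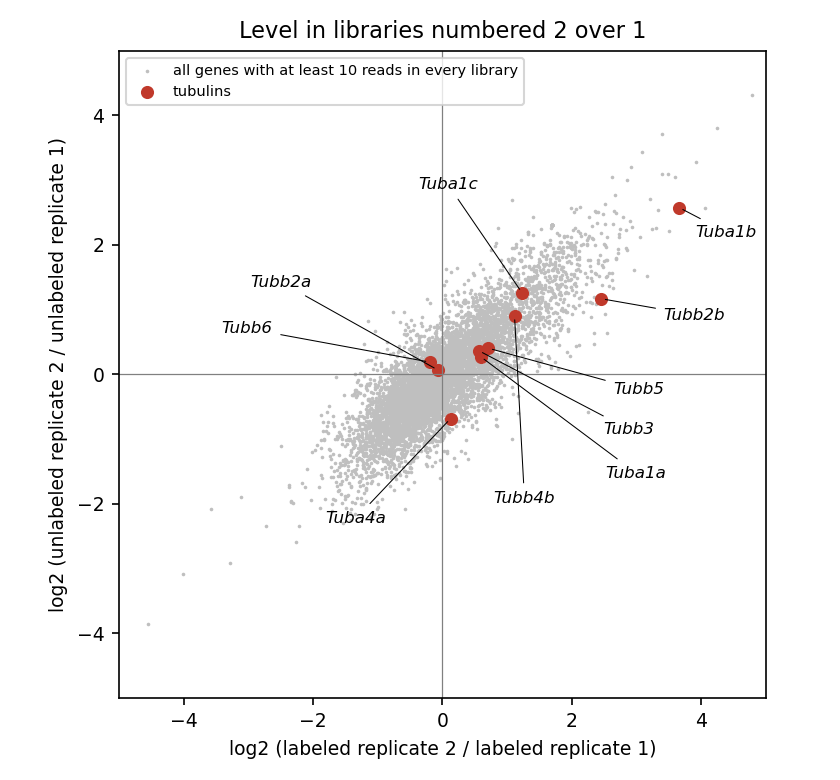
Log2 ratio of the level in replicate 2 over replicate 1, labeled libraries on the x axis and unlabeled libraries on the y axis. Grey points are 6858 genes and red points the 10 tubulins, of which Tuba4a is not among the grey points because it had 9 reads in labeled replicate 3. Tuba1b lies near the upper right end (12.6-fold and 5.96-fold), and Tubb2a lies near the centre.

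T>C conversions on tubulin transcripts were frequent after S4U and nearly absent without it. The T>C conversion rate is the share of covered T positions read as C, and it is higher the more of a gene's RNA was made in the 12 h of labeling. Tuba1a had a rate of 0.0338, 0.0361 and 0.0349 in labeled replicates 1, 2 and 3 (0.0350 ± 0.00114, n = 3), from 12714 to 28806 covered T positions, against 0.000249 and 0.000182 in the unlabeled libraries. Tubb5 had a rate of 0.0402, 0.0431 and 0.0388 with label (0.0407 ± 0.00217) and 8.88e-05 and 0.000291 without. Tubb2a had 0.0413, 0.0431 and 0.0390 with label (0.0411 ± 0.00208) and 0.00160 and 0.000738 without. For these 3 well-covered genes the libraries of a group lay close together and the groups did not overlap. The groups did not overlap for the other 7 members either, as for 89.2% of the 19240 intervals with a covered T in each library.

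Tuba1c had a rate of 0.0369, 0.0414 and 0.0464 in the labeled libraries (0.0416 ± 0.00476) and at most 0.000917 in the unlabeled ones. Tubb3 had 0.0321, 0.0399 and 0.0361 (0.0360 ± 0.00388), and its rate of 0.00197 in unlabeled replicate 1 was the highest unlabeled value of the family. Tubb6 had 0.0402, 0.0422 and 0.0515 (0.0447 ± 0.00603), and at most 0.000584 without label. Tubb4b, Tuba1b and Tubb2b had the widest spreads of the family. Tubb4b had 0.0260, 0.0387 and 0.0496 (0.0381 ± 0.0118), Tuba1b 0.0460, 0.0320 and 0.0379 (0.0387 ± 0.00703), Tubb2b 0.0627, 0.0380 and 0.0450 (0.0486 ± 0.0127) and Tuba4a 0.0354, 0.0258 and 0.0341 (0.0317 ± 0.00521). Coverage fell to 88 T positions for Tuba4a, 335 for Tubb2b, 543 for Tuba1b and 854 for Tubb6 in their least covered labeled library, while Tubb4b had at least 1149 in each. No conversion was seen in either unlabeled library on Tuba1b, Tubb2b and Tubb4b, which allows rates of up to 0.00283 and 0.000789 for Tuba1b, 0.00405 and 0.00269 for Tubb2b and 0.00249 and 0.00175 for Tubb4b in unlabeled replicates 1 and 2. These limits are 3 conversions of the covered T positions and cover counting error only.

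The beta-binomial test called all 10 tubulins higher in labeled libraries, with Benjamini-Hochberg adjusted p between 4.52e-06 (Tuba1a) and 0.000174 (Tuba4a). The same test called 94.5% of 19240 intervals, so the count of 10 of 10 is close to what all transcripts showed. These p-values rest on a chi-square approximation with 5 libraries. They are likely too small, because on simulated data the test called unchanged intervals more often than its unadjusted threshold allows. The simulated rate and overdispersion were fixed values, not estimates from these libraries, so the size of this excess here is not known. The cause of the excess was not tested. Another test, limma on the log odds, also called all 10, along with 18244 of the 19240 intervals.

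**Figure D3:**
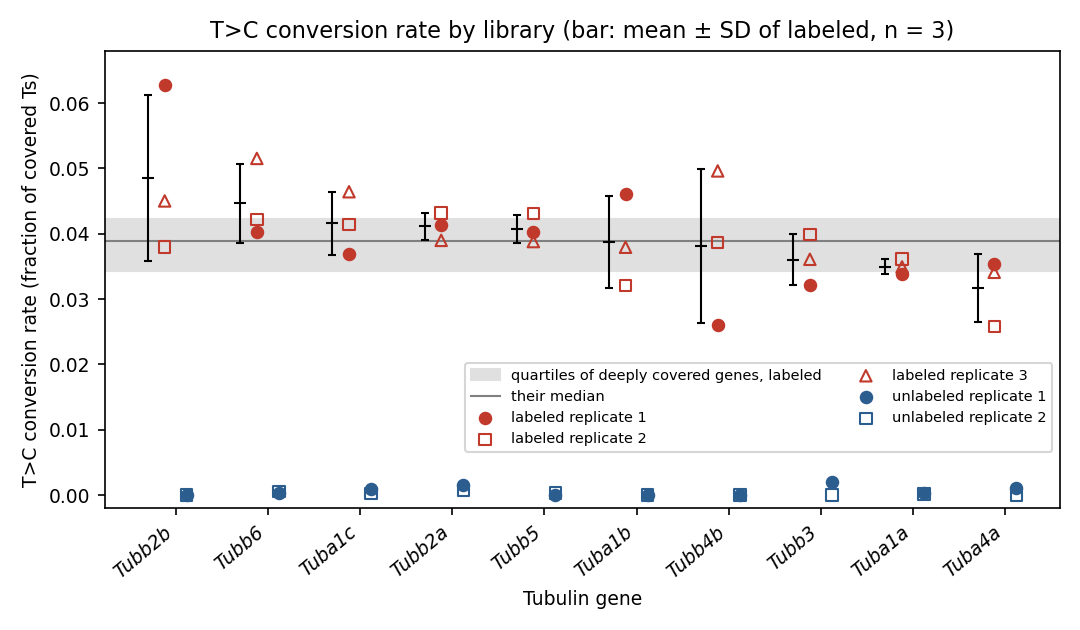
T>C conversion rate of each tubulin in each library, as a fraction of covered T positions, ordered by the labeled mean. Black bars are the mean ± SD of the 3 labeled libraries, and the grey band spans the quartiles (0.0343 to 0.0422) of the labeled mean of 2107 deeply covered genes (1000 or more T positions in each library). Of the 10 tubulins 7 have their mean inside the band, and every unlabeled point lies at or below 0.00197.

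Compared with other transcripts, tubulins had ordinary rates. Deeply covered genes were the 2107 that had 1000 or more covered T positions in each of the 5 libraries, and their median labeled rate was 0.0388 with quartiles of 0.0343 and 0.0422. The 10 tubulins had a median of 0.0397, with 5 above and 5 below the median of these genes and 7 between the quartiles. The exceptions were Tubb6 and Tubb2b above and Tuba4a below, none of which was deeply covered. Of the 6 tubulins that were (Tuba1a, Tuba1c, Tubb2a, Tubb3, Tubb4b and Tubb5), Tuba1a had the lowest mean rate and exceeded 27.5% of the 2107 genes, and Tuba1c had the highest and exceeded 70.8%.

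Between isotypes, 19 of 45 pairs kept the same order in every labeled library. A pair with no difference would keep 1 order in 3 of 3 libraries with a probability of 0.25. The pairs also share genes, so the count is a description. Tuba1a was below Tuba1c, Tubb2a, Tubb2b, Tubb5 and Tubb6 in 3 of 3 libraries. Its mean difference from Tubb5 was −0.00574 ± 0.00164 and from Tubb2a −0.00618 ± 0.00185 (SD of the differences within libraries, n = 3). Tubb2a exceeded Tubb5 in 3 of 3 libraries by only 0.000441 ± 0.000535, a difference smaller than its spread. With conversions and covered positions summed by class, beta tubulins had rates of 0.0397, 0.0423 and 0.0402 and alpha tubulins 0.0344, 0.0364 and 0.0373 in labeled replicates 1, 2 and 3. Beta tubulins were also higher in both unlabeled libraries, at 0.000916 and 0.000398 against 0.000324 and 0.000165. Most of the alpha sum comes from Tuba1a and most of the beta sum from Tubb5 and Tubb2a, so these sums largely restate the difference between those genes.

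The share of reads with at least 1 conversion gave a different order. Its labeled mean ran from 47.2% ± 17.6 (Tuba4a) to 68.6% ± 7.93 (Tubb2b), with 51.6% ± 2.04 for Tuba1a and 54.3% ± 3.26 for Tubb2a, beside a median of 52.7% over the 2107 genes. A read over a T-rich interval has more positions that can convert, and the T content of the intervals ranged from 24.4% (Tubb6) to 41.7% (Tuba1c). On Tuba1a, 30 and 16 reads of the unlabeled libraries were listed with a conversion, against 10 and 5 conversions at covered T positions, so the deposited columns do not count the same positions.

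Read counts of labeled and unlabeled libraries were compared to see whether tubulin transcripts differed in level after 12 h with S4U. For Tuba1a, Tuba1b, Tuba1c, Tubb2a, Tubb2b, Tubb3, Tubb4b, Tubb5 and Tubb6 the 2 groups overlapped. For Tuba4a all 3 labeled libraries were below both unlabeled ones, as were those of 13.1% of the 9807 genes tested, while 8.2% of genes had all labeled libraries above. Fitted without a term for the replicate number, edgeR's quasi-likelihood test called none of the 10 tubulins, and it called 0% of the 9807 genes at an adjusted p below 0.05. At an unadjusted p below 0.05 it named 0 tubulins and 5.97% of all genes, and DESeq2 called 0 tubulins and 19 of 9807 genes. With the replicate number as a block, edgeR called 1 tubulin, Tubb6 (log2 0.52, adjusted p 0.0313). That fit called 528 of the 9807 genes higher and 618 lower. The labels do not say whether a shared number marks 1 preparation.

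The fitted log2 difference of labeled over unlabeled was −0.67 for Tuba4a (SE 0.37), the largest in size among the members, with an adjusted p of 0.955 by edgeR. Tuba1b had 0.64 (SE 1.14), Tubb2b 0.60 (SE 0.80) and Tuba1c 0.54 (SE 0.55), each with an SE about as large as the difference or larger. Tubb4b had 0.52 (SE 0.48), Tubb5 0.49 (SE 0.33), Tubb6 0.41 (SE 0.27) and Tubb3 0.29 (SE 0.39). Single libraries moved these values. Tuba1b moved most, to −0.17 without unlabeled replicate 1, 2.50 without unlabeled replicate 2 and 0.03 without labeled replicate 3. Tubb3 was at 0.07 without unlabeled replicate 1 and −0.02 without labeled replicate 3. Without unlabeled replicate 1, Tuba1c was at 0.0045, Tubb2b at 0.05, Tubb4b at 0.09, Tubb5 at 0.26, Tubb6 at 0.27 and Tuba4a at −0.34. Without unlabeled replicate 2, Tuba1c was at 1.36, Tubb2b at 1.32, Tubb4b at 1.09 and Tubb5 at 0.76. Tuba1a had −0.11 (SE 0.31), and Tubb2a 0.00 (SE 0.22). The median of the 10 members was 0.45 beside 0.02 over all genes. This median rested on which libraries were used: it was 0.03 without unlabeled replicate 1, 0.12 without labeled replicate 3, 0.62 without labeled replicate 1 and 0.65 without unlabeled replicate 2.

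Within a replicate number there is 1 library per group, so the ratios of a single number carry no test of their own. The fit with the replicate number as a block, given above, called only Tubb6 among the 10 tubulins. Labeled over unlabeled, Tubb6 was at 1.56-fold in replicate 1 and 1.20-fold in replicate 2, Tubb5 at 1.08-fold and 1.34-fold, Tubb4b at 1.11-fold and 1.28-fold and Tuba1c at 1.19-fold and 1.16-fold. Tuba1a was at 0.706-fold and 0.881-fold and Tuba4a at 0.538-fold and 0.943-fold. Tuba1b (0.492 and 1.04), Tubb2b (0.543 and 1.32) and Tubb2a (1.01 and 0.914) had opposite directions in the 2 replicates, and Tubb3 was at 0.869-fold and 0.995-fold.

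**Figure D4:**
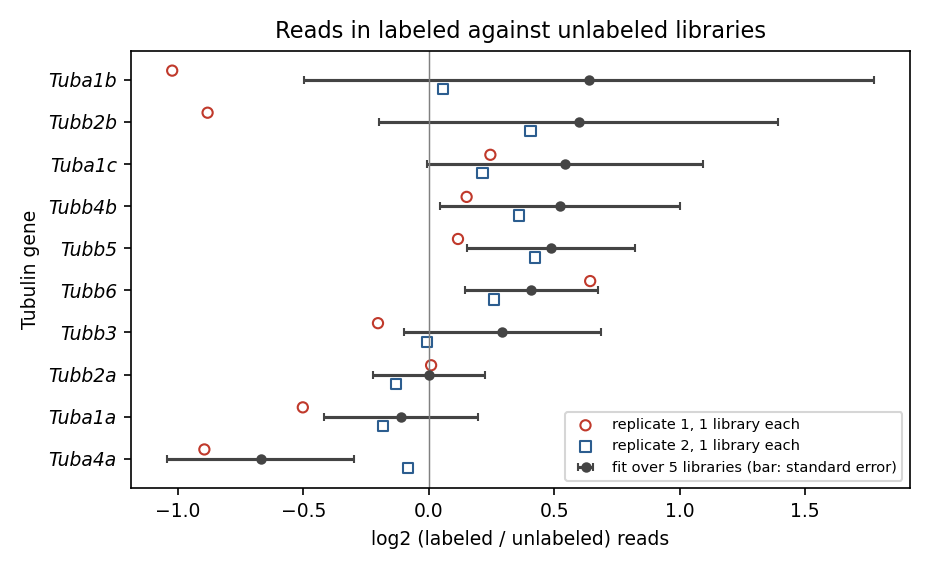
Log2 ratio of labeled over unlabeled reads for each tubulin. Black points and bars are the edgeR estimate over 5 libraries with its standard error, and open points are the ratio of CPM relative to counted reads within replicate 1 (circle) and replicate 2 (square), with 1 library per group. The estimates run from −0.67 (Tuba4a) to 0.64 (Tuba1b), and no tubulin passed the test in this fit, which has no term for the replicate number.

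Genes that fold, nucleate, bind, modify and cut tubulin were read beside the members. Of 81 genes in 9 lists, 74 had a covered T in every library and 71 of them had a higher T>C rate in labeled libraries by the beta-binomial test, close to the 95% of all 11179 genes with 1 interval each. Of 64 list genes that could be tested for reads, edgeR called 0, DESeq2 0, and 3 had an unadjusted p below 0.05 by edgeR, no larger a share than the 5.97% of all genes. These were Pfdn6, a prefoldin subunit (log2 difference 1.41, SE 0.57), Stmn1, which binds free tubulin dimers (−1.50, SE 0.59), and Ttll4, a polyglutamylase (−1.08, SE 0.40).

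The CCT chaperonin folds newly made tubulin, and its 8 subunits summed to between 1526 and 1780 CPM, and each subunit was deeply covered. Their labeled T>C rates had a median of 0.0402, with 6 of 8 above the median of all 2107 such genes. Tcp1 had the lowest rate (0.0326 ± 0.00313) and Cct4 the highest (0.0502 ± 0.00780). Prefoldin, which hands unfolded tubulin to CCT, summed to between 331 and 568 CPM, and Pfdn2 was the only subunit with that coverage (0.0390 ± 0.00234). The 7 genes on the list of folding cofactors summed to between 381 and 513 CPM. Of these 7 genes only Tbca, which receives beta tubulin (0.0388 ± 0.00340), and Tbcel (0.0387 ± 0.00285) had that coverage. Of the 16 microtubule-associated proteins, Map4, a lattice-binding protein (0.0411 ± 0.00147), and Mapre1, which tracks growing ends (0.0398 ± 0.00137), had it. The rates of Pfdn2, Tbca, Tbcel, Map4 and Mapre1 lay within the quartiles of the 2107 genes. Among the CCT subunits Tcp1 lay below them, and Cct2 (0.0494 ± 0.00514), Cct4 and Cct6a (0.0457 ± 0.00450) lay above.

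The remaining lists were read at low levels. The 7 genes of tubulin mRNA autoregulation summed to between 202 and 360 CPM, and all 7 were called higher in T>C rate, beside the 95% of all genes. None of the 7 was deeply covered, and the rate of Ttc5 rests on 26, 11 and 4 reads in the labeled libraries. The nucleation list, with gamma tubulin and its partners, summed to between 164 and 240 CPM, the tubulin-modifying enzymes to between 271 and 370 CPM and the severing enzymes to between 85.4 and 145 CPM. Other tubulins outside the 10 members summed to at most 32.1 CPM, and 4 of those 8 genes were listed at 0 in every library. Cycling markers (Mki67, Top2a, Ccnb1, Cdk1, Birc5 and Ccnb2) summed to 145, 210 and 241 CPM in the labeled and 288 and 409 CPM in the unlabeled libraries, with a median log2 difference of −0.85 and 0 of 6 called by edgeR (1, Ccnb2, at an unadjusted p below 0.05). Their sum was lower in libraries numbered 1 of each group, as was that of the tubulins, and their part in the tubulin levels was not tested.

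The genes whose levels across the 5 libraries ran most like those of the leading tubulins were found by the distance of their centred log2 levels, among 9806 other genes past the filter on low counts. For Tuba1a these were Csad (distance 0.102), Rtn1 (0.104) and Polr1a (0.115). For Tubb5 they were Mfsd5 (0.0919), Bcar1 (0.104) and Ube2d2a (0.113). Csad ran at 41.9, 67.8 and 67.2 CPM in the labeled and 59.1 and 70.3 CPM in the unlabeled libraries, and Mfsd5 at 57.7, 94.6 and 98.8 CPM and 56.4 and 75.3 CPM. With 5 libraries the likeness mainly reflects which libraries were low, here labeled replicate 1 for Tuba1a and both libraries numbered 1 for Tubb5.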

How the data were processed

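SLAMseq tables of 5 libraries, 3 labeled and 2 unlabeled, were analysed. The authors extracted unique molecular identifiers with umi-tools, mapped reads to mm39 and counted them with SLAM-DUNK (0.4.3 per the file headers) on 3′ UTR intervals. Read counts, counts of reads with a conversion, of covered T positions and of conversions were deposited as raw values. The conversion rate the authors deposited is a fraction of the covered T positions. The deposited CPM divides the reads of an interval by one number per library.

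Rows that repeated an interval were used once (97442 rows, 40428 intervals). The T content of 20329 of 20329 gene intervals compared matched GRCm39. For T>C rates, a beta-binomial model was fitted to each interval in which every library covered a T. Its overdispersion was estimated for each interval separately and shared by both groups, which were compared by likelihood ratio. For reads, the quasi-likelihood test of edgeR was run after TMM and filterByExpr, both with Benjamini-Hochberg adjustment at 0.05 over the whole table and two-sided. The likeness of levels used log2(CPM + 1). Both tests were tested on simulated data, where the beta-binomial test called unchanged intervals more often than its unadjusted threshold allows. Interval copies were searched with blastn 2.17.0. Tools were DESeq2 1.42.0, limma 3.58.1, edgeR 4.0.16 and R 4.3.3, and Biopython 1.88, numba 0.67.0, pandas 2.3.3 and scipy 1.17.1 with Python 3.11.15.

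Named genes were the 10 members, the 3 genes nearest in level to the most-read alpha and beta tubulin, and the list genes with the highest and lowest T>C rate among deeply covered genes (1000 or more covered T positions in each library). Genes with an unadjusted p below 0.05, or called in an alternative, were named after their values were seen. The members and lists were chosen with earlier results of these data known. Between 506045 and 1843033 reads per library set the precision. Libraries of a group differed beyond sampling noise (chi-square per degree of freedom 2.04 to 16.6), so none was counted as a copy. Alternatives were a minimum of 1000 covered T positions, limma on log odds (pseudocount 0.5), DESeq2 and its size factors, no filter, reads summed over intervals, deposited CPM, the replicate number as a block and each library left out. Leaving out both libraries numbered 1 was added after the data were seen. Protein sequences were not used here.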

Additional observations from a re-analysis of the deposited data

How the results depend on the processing

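All 10 tubulins were called higher in T>C rate with each library left out in turn (10 to 10), at an unadjusted threshold, with 1 interval per gene and with limma on the log odds, with or without the replicate block. These counts are about what all intervals gave, with 16920 of 19374 to 18549 of 20405 called with a library left out and 18200 of 19240 unadjusted. At 1000 covered T positions in every library only 6 tubulins could be tested, and 6 were called, as were 3154 of 3156 intervals. For reads, 0 tubulins were called with each library left out (0 to 0), with DESeq2, with its size factors, without a filter or with summed intervals. Apart from DESeq2, these fits called 0 genes in all, so the count of 0 tubulins says nothing about stability. Where an unlabeled library was left out, the lone one was assumed to vary like the labeled group. The replicate numbers are shared by labels only. Across genes, deviations from the group mean had a correlation of 0.779 for labeled and unlabeled replicate 1 and of 0.630 for replicate 2. Labeled replicate 3 and unlabeled replicate 2, which share no number, had 0.474. The deviations of 2 unlabeled libraries are mirror images of each other, so these values are not independent, and they do not settle whether the numbers pair the libraries. With the replicate block, the members' median log2 difference was −0.01, and edgeR called 1 tubulin, Tubb6 (log2 0.52, adjusted p 0.0313, against 0.709 to 1.00 in the other settings), 4 list genes (Pfdn2 higher, Stmn1, Tbcd and Ttll4 lower) and 528 genes higher and 618 lower. Without both libraries numbered 1, which leaves 2 labeled libraries and 1 unlabeled library with the spread taken from the labeled pair, it called 0 tubulins, 1 list gene (Clasp2, lower) and 166 genes higher and 206 lower. DESeq2 called 13 higher and 6 lower.

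No tubulin difference that changed sign was past the test's threshold. With a library left out, Tuba1a ranged from −0.2849 (unlabeled replicate 1) to 0.0855 (labeled replicate 1) and was 0.0832 without unlabeled replicate 2. Tuba1b turned to −0.22 with the replicate block and −0.17 without unlabeled replicate 1, with a highest value of 2.50. Tubb3 turned to −0.055 with the block and ranged from −0.0158 (without labeled replicate 3) to 0.546 (without labeled replicate 1), and Tubb2b turned to −0.0069 with the block. Tubb2a, at 0.00, turned to small negative values with DESeq2 size factors (−0.0029), DESeq2 (−0.0027), summed intervals (−0.0012) and the block (−0.0049), to −0.0077 without a filter, −0.0082 and −0.0802 without labeled or unlabeled replicate 1, and −0.0915 without both, and was highest at 0.0798 without unlabeled replicate 2. The cause was not tested.

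The summed tubulin level of 2696 CPM became 205 CPM on the deposited scale and 1874 CPM with reads summed over intervals, because both divide by more reads. The median T>C rate over the 10 tubulins, taken in each labeled library and then averaged, was 0.0389 (the median of the 10 labeled means was 0.0397). It became 0.0384 after the unlabeled mean was subtracted, and as a share of reads it was 53.1%. Depth limits Tuba4a and Tubb2b, whose labeled libraries hold as few as 9 and 13 reads.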
